A study of Caenorhabditis elegans with 2 samples.

Results

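Genomic sites of the tagged protein F10B5.3 (named btbz-2 in RefSeq) that lie at genes for small nucleolar RNAs (snoRNAs) and small nuclear RNAs (snRNAs) were taken from a chromatin immunoprecipitation (ChIP-seq) experiment in Caenorhabditis elegans. A site was a call of the authors' relaxed peak list, made from both replicates pooled, which keeps weak calls beside strong ones. A call was included if its summit lay on a nuclear chromosome and within 200 bp of a gene annotated as snoRNA or snRNA, and not within 200 bp of a tRNA gene or of a gene for a spliced leader RNA (named sls-). This gave 236 of the 29977 nuclear calls, out of 30000 calls in all, and the tRNA and spliced leader conditions removed 0 of them. The rule used positions and gene classes only, so signal and position along the gene were free to vary.

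The worms were L4 hermaphrodites of strain OP529, collected 48 hours after the start from starved L1 larvae. They carried unc-119(tm4063) III and the integrated transgene wgIs529, which made F10B5.3 with GFP and FLAG at its C-terminus, and the protein was recovered with an antibody to GFP. The 2 biological replicates formed 1 group, without a second strain, stage or treatment among the samples, so nothing was compared between conditions. The tagged copy comes from 1 transgenic line and adds to whatever the worms' own gene makes, and whole animals were used, so calls from different tissues cannot be told apart.

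snoRNAs guide the chemical modification of ribosomal and other RNAs. C/D box snoRNAs direct methylation of the ribose and H/ACA box snoRNAs direct the conversion of uridine to pseudouridine. The snRNAs U1, U2, U4, U5 and U6 form the core of the spliceosome, and nematodes also have SmY RNAs, which bind Sm proteins and are linked to trans-splicing. In most animals U1, U2, U4 and U5 are made by RNA polymerase II and U6 by RNA polymerase III, from promoters with upstream elements bound by the complex SNAPc. A snoRNA can be cut out of the intron of a host gene or be transcribed on its own, and in budding yeast the snoRNA gene SNR52 is transcribed by RNA polymerase III from an A box and a B box in a leader ahead of the mature RNA. The A and B boxes are the internal promoter elements of tRNA genes.

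Most calls in the stricter set described below had their summit in the 100 bp ahead of the gene, and the 100 bases ahead of those starts carried short shared sequences of at least 2 types. The sequences are those of the WBcel235 reference (RefSeq's copy of the assembly, the same as ce11), read 5′ to 3′ on the strand of the gene, with the last base next to the annotated gene start. The first set shows genes with the word GCGNAACC, in capitals, some with the word TGTCGGCC, also in capitals. Their windows are V:8500479-8500578 on the plus strand for ZK994.7, III:10989579-10989678 on the plus strand for W05B2.8, II:15025894-15025993 on the minus strand for Y53F4B.47 and IV:8428740-8428839 on the minus strand for T26A8.6. ZK994.7, Y53F4B.47 and T26A8.6 are snoRNA genes and W05B2.8 is a U6 gene.
ZK994.7: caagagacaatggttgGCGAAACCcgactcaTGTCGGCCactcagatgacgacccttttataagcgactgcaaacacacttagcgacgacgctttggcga
W05B2.8: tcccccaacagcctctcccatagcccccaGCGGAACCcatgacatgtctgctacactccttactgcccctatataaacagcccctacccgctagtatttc
Y53F4B.47: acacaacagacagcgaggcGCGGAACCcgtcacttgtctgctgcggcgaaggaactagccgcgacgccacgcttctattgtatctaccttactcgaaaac
T26A8.6: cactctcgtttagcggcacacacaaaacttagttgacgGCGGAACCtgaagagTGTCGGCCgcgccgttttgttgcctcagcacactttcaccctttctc

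The second set shows snoRNA genes with the words TGGCNNAG and GTTCGA in capitals, which are letters found in the A box and the B box of tRNA genes. Their windows are V:19643188-19643287 on the minus strand for Y43F8C.22, V:11782892-11782991 on the plus strand for F55A11.10, II:11960798-11960897 on the plus strand for W03C9.9 and IV:7574022-7574121 on the plus strand for F32E10.10. W03C9.9 and F55A11.10 also have the letters of C/D box snoRNAs within the gene.
Y43F8C.22: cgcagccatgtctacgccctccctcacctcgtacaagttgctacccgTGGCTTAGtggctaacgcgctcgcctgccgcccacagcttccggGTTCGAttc
F55A11.10: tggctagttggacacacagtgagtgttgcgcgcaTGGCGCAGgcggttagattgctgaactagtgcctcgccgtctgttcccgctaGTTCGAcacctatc
W03C9.9: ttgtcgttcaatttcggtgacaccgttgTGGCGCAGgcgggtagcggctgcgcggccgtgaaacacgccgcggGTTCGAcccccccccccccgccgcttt
F32E10.10: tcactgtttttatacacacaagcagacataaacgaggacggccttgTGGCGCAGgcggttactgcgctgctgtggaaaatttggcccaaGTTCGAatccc

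The third set shows snoRNA genes that are among the 6 strongest calls and hold no exact copy of these words. The call at C51F7.4 also lies within 200 bp of another snoRNA gene, C51F7.3, which has GTTCGA ahead of its start. C08D8.3 holds the near matches GCGAAACT and TGTCGGCG, which differ from GCGNAACC and TGTCGGCC in the last letter. They stand in the same order and at the same spacing as those words in ZK994.7 and T26A8.6. Their windows are V:12303499-12303598 on the plus strand for C51F7.4 and V:8349008-8349107 on the plus strand for C08D8.3.
C51F7.4: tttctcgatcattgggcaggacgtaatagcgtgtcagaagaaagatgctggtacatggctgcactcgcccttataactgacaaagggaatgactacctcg
C08D8.3: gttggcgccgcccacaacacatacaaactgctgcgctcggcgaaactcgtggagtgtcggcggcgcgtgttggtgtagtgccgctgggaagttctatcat

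Each call carries a signal value from the authors' peak caller, on a scale that the sources used here do not state, and larger values rank higher. The authors also deposited a stricter peak set from both replicates, selected by the irreproducible discovery rate (IDR), a measure of how well replicate rankings match. Of the calls at snoRNA and snRNA genes, 90 of 236 were in the IDR set, or 38.1% (95% Wilson interval 32.2 to 44.5), against 2.80% of all nuclear calls (839 of 29977). Among the nuclear calls at other places the share was 2.52%. Because the IDR set held the calls of highest pooled signal, the share in the set and the signal are one measurement and not independent of each other. All intervals treat calls as independent draws and cover counting error only, not the spread between worm cultures. Read depth was not used here and is unknown.

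The median pooled signal of the 236 calls was 58.1, with quartiles of 30.5 and 134.6, against a median of 27.6 and quartiles of 22.3 and 36.9 over all nuclear calls. The lowest value was 18.4, close to the lowest value of the list, so calls at these genes spanned nearly its whole range below the strongest calls. A total of 188 of 236 lay above the median of all nuclear calls. The 2 other classes of short RNA genes were also high in the list. Of 492 calls at tRNA genes, 117 (23.8%) were in the IDR set, with a median signal of 56.7, and of 24 calls at spliced leader genes 13 (54.2%) were, with a median of 92.4. The Wilson interval for the tRNA calls (20.2 to 27.7) lay below that for snoRNA and snRNA calls, and the interval for spliced leader calls (35.1 to 72.1) overlapped it.

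The share of snoRNA and snRNA calls changed along the ranking by signal. Among the nuclear calls ranked 1 to 100 they made up 13.0% (13 calls; 95% interval 7.76 to 21.0), and among ranks 101 to 200 they made up 25% (25 calls; 17.5 to 34.3). The share was 13.0% in ranks 201 to 400 and 5.92% in ranks 401 to 839, which ends the IDR set. It was 2.24% in ranks 840 to 2000 and 0.311% in ranks 20001 to 29977. The first 50 ranks held 4 of these calls, and the highest of them stood at rank 20. The share in the top 100 and in ranks 101 to 200 had overlapping intervals.

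**Figure D1:**
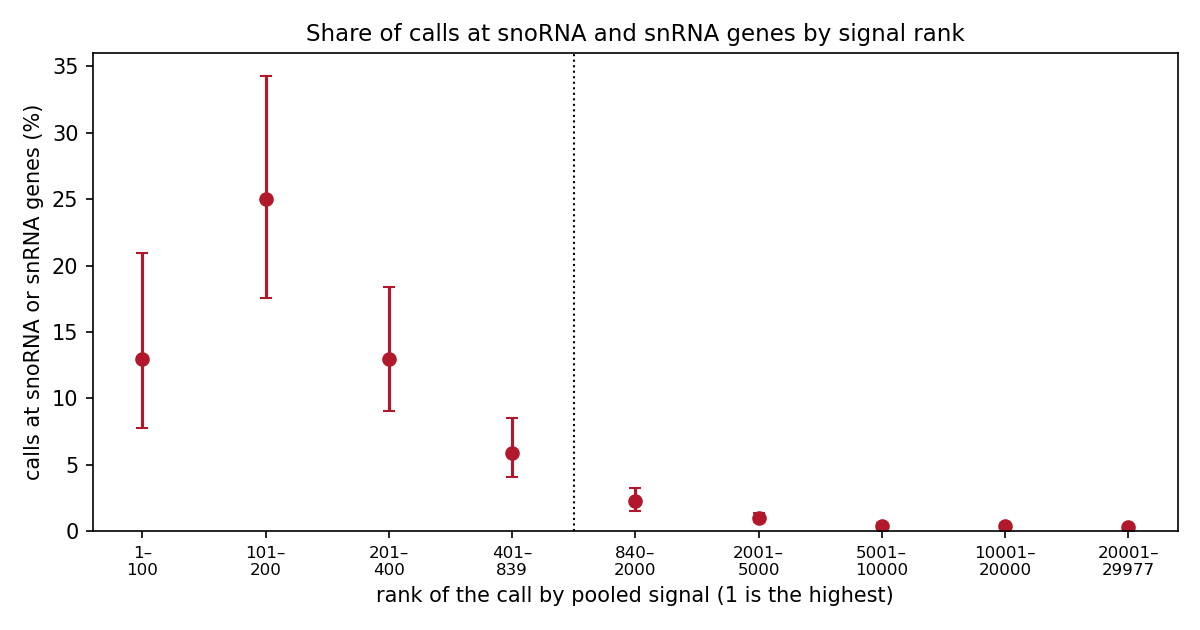
Percentage of nuclear calls that lie at snoRNA or snRNA genes (vertical axis) in 9 bins of rank by pooled signal (horizontal axis), with 95% Wilson intervals as bars; the dotted line marks the end of the IDR set. The share is 13.0% in ranks 1 to 100, 25% in ranks 101 to 200 and 0.311% in the last bin.

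Both replicates contributed. A pooled call was matched to a replicate's own relaxed list if the summits lay within 100 bp. Replicate 1 held a match for 170 of the 236 calls and replicate 2 for 185, with 142 matched in both and 23 in neither. Of the 90 calls in the IDR set, 89 were matched in replicate 1 and 86 in replicate 2, and of the 146 others 81 and 99 were. Over the 142 calls matched in both, the log10 signals had a Pearson correlation of 0.807 and a Spearman correlation of 0.826 across calls, which share the 2 libraries. Over the 86 such calls in the IDR set the values were 0.703 and 0.741, and over the 56 outside it 0.285 and 0.311. In the 839 highest nuclear calls of each replicate's own list, replicate 1 held 79 of the 236 and replicate 2 held 81, with 67 in both.

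**Figure D2:**
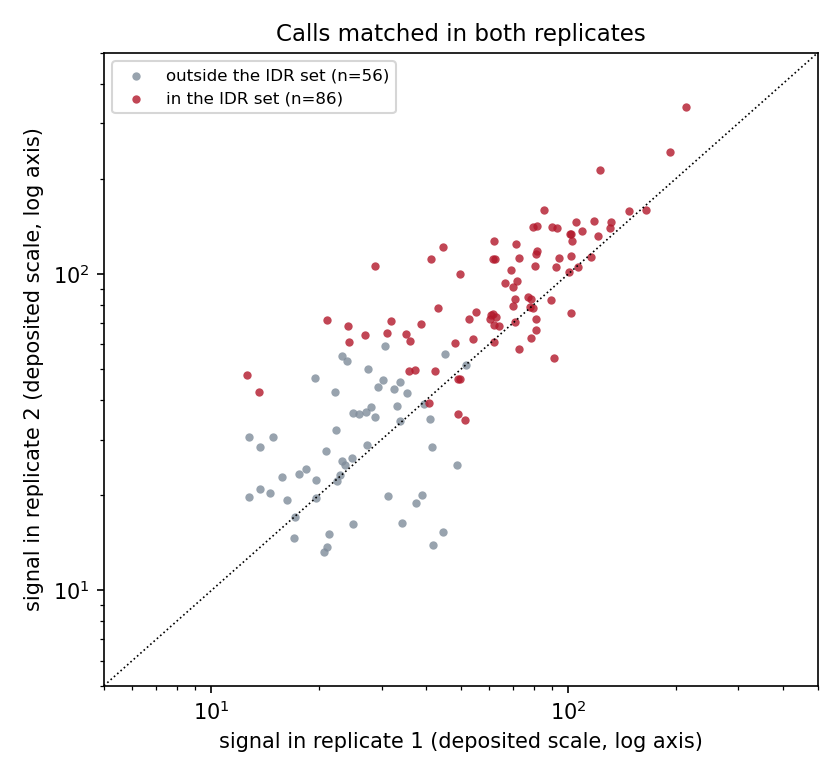
Signal of each matched call in replicate 1 (horizontal, log axis) and replicate 2 (vertical, log axis), on each replicate's deposited scale, for the 142 calls matched in both; red points are in the IDR set, grey points are not, and the dotted line marks equal values. The 86 red points lie mostly above the 56 grey ones in both replicates.

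Genes were placed by their position relative to protein-coding genes. A host-intron gene lay within an intron of a protein-coding gene on the same strand, and an independent gene overlapped no protein-coding gene. The remaining genes lay in an intron on the other strand, or touched an exon and are called other. Of 93 calls at host-intron genes, 30 were in the IDR set, or 32.3% (23.6 to 42.3), with a median signal of 58.1. Of 94 calls at independent genes, 41 were, or 43.6% (34.0 to 53.7), with a median of 68.3. The intervals overlapped, and the difference between the classes was not tested. Calls in introns on the other strand had 11 of 22 in the set (50%) and a median of 70.7, and the class other had 8 of 27 (29.6%) and a median of 40.9. For snoRNA genes alone the shares were 24 of 68 (35.3%) in host introns and 30 of 69 (43.5%) for independent genes.

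**Figure D3:**
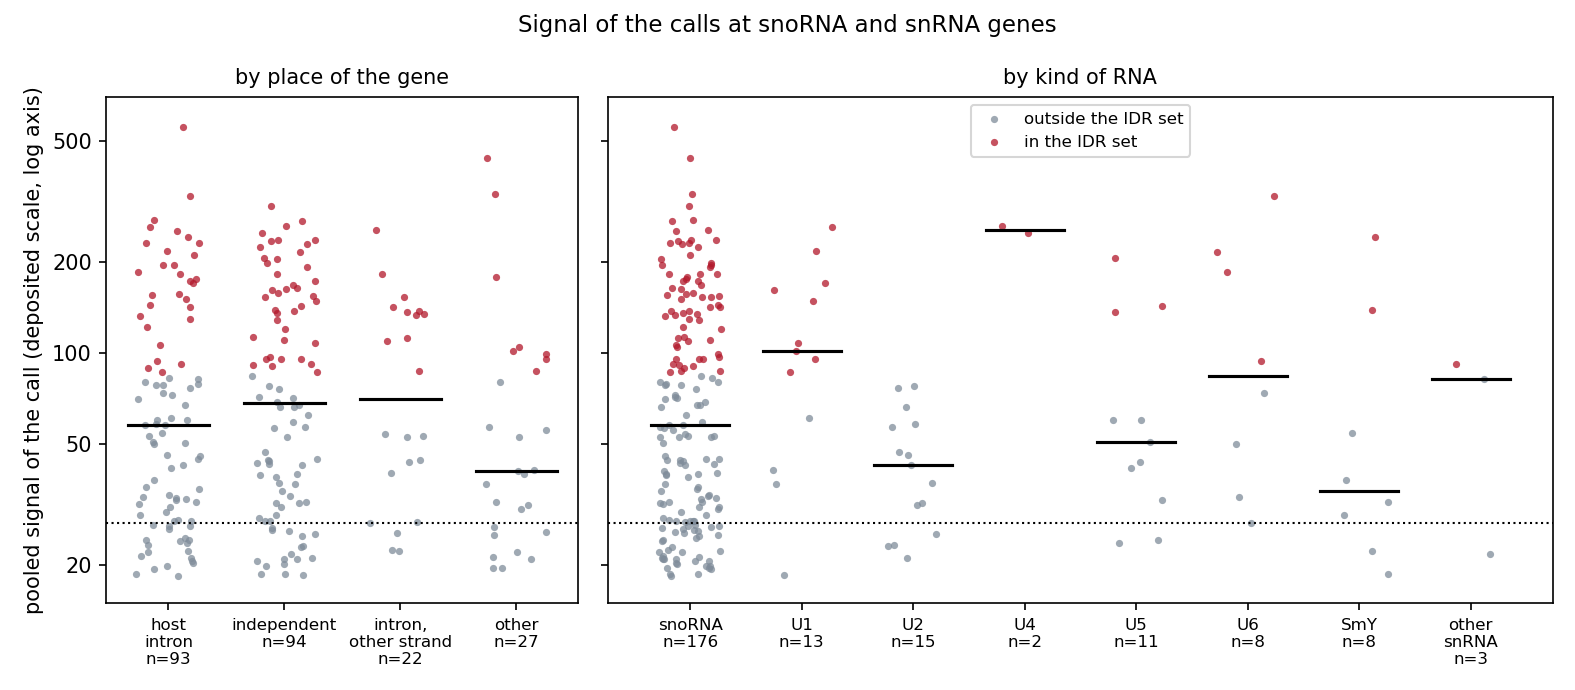
Pooled signal of each of the 236 calls (vertical, log axis, deposited scale) by place of the gene (left) and by kind of RNA (right); red points are in the IDR set, black bars are medians and the dotted line is the median of all nuclear calls, 27.6. Host-intron and independent genes overlap widely, with medians of 58.1 and 68.3, and the 15 calls at U2 genes are all grey.

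The highest call of all lay at ZK994.7, a snoRNA gene in an intron of pxn-1, which encodes a peroxidasin. Its pooled signal was 555, with 214 in replicate 1 and 337 in replicate 2. The replicate values come from lists with their own scale, so their levels are not compared. The summit, at V:8500550, lay 29 bp ahead of the gene's start and 5661 bp from the nearest start site of pxn-1, in an intron of 341 bp. The next host-intron snoRNA calls, with the SmY genes described separately below, were C08D8.3 in C08D8.1 with 274 (132 and 146 in replicates 1 and 2), Y43F8C.22 in Y43F8C.7 with 251 (121 and 132) and C10C6.8 in catp-8, a P-type ATPase gene, with 231 (90.4 and 141). The fifth was Y37E3.20 in pcyt-2.1 with 230 (116 and 113). Among these 5 the summits lay between 92 bp ahead of the start (C10C6.8, offset -92) and 8 bp past it (Y43F8C.22).

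The highest independent snoRNA gene was Y53F4B.47 on chromosome II, with a pooled signal of 306 and replicate values of 148 and 159. Its summit lay 41 bp ahead of the gene's start and 180 bp from the start site of cmtr-1, a cap methyltransferase gene. F59C6.15 followed with 272 (131 and 140), then T26A8.6 with 236 (102 and 133), ZK265.10 with 235.2 (101 and 134) and W03C9.9 with 234 (93.1 and 140). All 5 summits lay ahead of their gene's start, by 13 to 64 bp. Outside both classes, a call of 439 (193 and 243) lay at 61 bp past the start of C51F7.4, a snoRNA gene that touches an exon. The same call was within 200 bp of the C/D box snoRNA gene C51F7.3, in an intron of frm-7. C51F7.3 has GTTCGA ahead of its start, and the call cannot be assigned to only 1 of them. F39B2.14, a snoRNA gene of the same class on chromosome I, had 335 (123 and 213) at -110 bp, 49 bp from the start site of tmem-107. In an intron of cutl-18, on its other strand, T03F7.8 had 255 (105 and 146).

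Host-intron calls in the IDR set were mostly far from the start of the host. Over all 93 host-intron calls, 55 lay over 1000 bp from it. Of the 30 host-intron calls in the IDR set, 23 lay over 1000 bp from every annotated start site of the host gene, with a median distance of 1972.5 bp over the 30. For 26 of the 30 the summit was inside the same intron as the small RNA gene, and those introns had a median length of 359.5 bp over the 30. The 30 calls fell in 25 host genes. At 7 of these hosts an IDR summit lay within 1000 bp of the host's own start, but without the calls at small RNA genes this held for 1. The nearest were F55A11.10 at 67 bp (pooled signal 172), D1046.6 in cfim-2 at 201 bp (129) and smy-2 at 219 bp (241). Host-intron calls with no protein-coding start within 1000 bp had 20 of 49 in the IDR set (40.8%; 28.2 to 54.8), and those with such a start 10 of 44 (22.7%; 12.8 to 37.0). Independent genes gave 17 of 48 (35.4%; 23.4 to 49.6) and 24 of 46 (52.2%; 38.1 to 65.9), the opposite order, and in each case the intervals overlapped.

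The summits in the IDR set were gathered at the gene's 5′ end. Their offset from the start, counted along the gene's strand with negative values upstream, had a median of -12 bp and quartiles of -31 and 64. In the 100 bp ahead of the gene lay 54 of the 90 summits, 19 were inside the gene and 11 lay in the 100 bp after its end. Outside the IDR set the counts were 36, 28 and 38 of 146, with a median offset of 103.5 bp. With 1 call per gene, the one of highest signal, 51 of 78 IDR summits were in the 100 bp ahead and 7 in the 100 bp after. Host-intron genes (19 ahead and 4 after, of 30; median -10.5) and independent genes (27 and 3, of 41; median -18) are given side by side, and their difference was not tested. Outside the IDR set the median offsets were 144 bp for host-intron genes and 39 bp for independent genes.

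**Figure D4:**
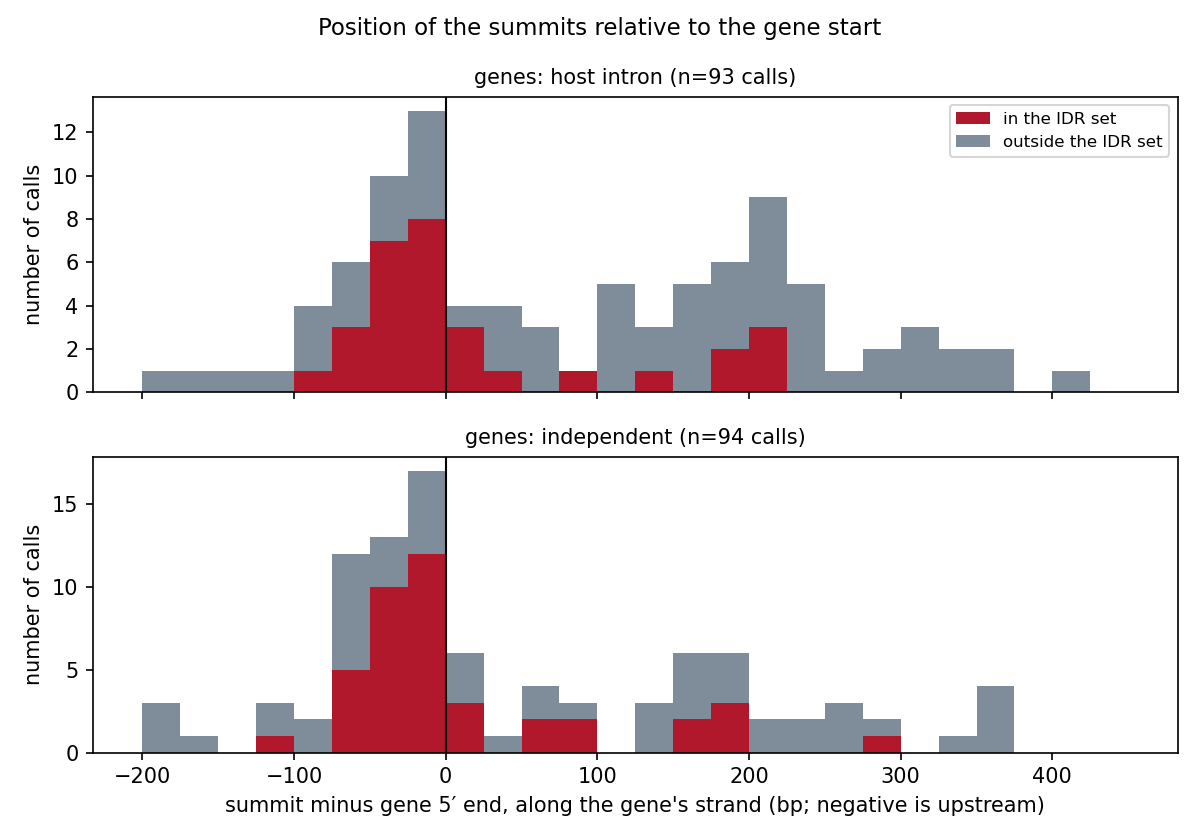
Number of calls (vertical axis) by distance of the summit from the gene's 5′ end along its strand (horizontal axis, bp, bins of 25), for host-intron genes (top) and independent genes (bottom); red calls are in the IDR set and grey calls are not. In both panels the red calls gather just ahead of 0, with medians of -10.5 and -18, and a smaller group lies near 200 bp.

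Distance from the gene body gave the same picture without regard to strand. Summits 1 to 50 bp outside a gene had 49 of 79 in the IDR set (62.0%; 51.0 to 71.9) and a median signal of 129. Summits inside a gene had 19 of 47 (40.4%), those 51 to 100 bp away 16 of 60 (26.7%) and those 101 to 150 bp away 6 of 24. At 151 to 200 bp the count was 0 of 26, for which the interval allows up to 12.9%, and just beyond the limit, at 201 to 300 bp, it was 2 of 40. The last calls inside the limit were at F18A1.11 (200 bp away, signal 26.8), F17C11.15 (199 bp, 53.2) and smy-6 (197 bp, 22.2). The first outside it were at T04A8.17 (209 bp, 30.3), K02F3.15 (214 bp, 54.1) and F22D6.16 (216 bp, 43.1). None of these 6 was in the IDR set. At the edge of the IDR set stood F08H9.11 (86.6) and T06D8.11 (86.9) inside and M7.15 (84.1) and F11A10.9 (82.6) outside.

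Some of these genes had more than 1 call, and how often calls pair over the whole list was not counted. The 236 calls fell at 190 nearest genes, of which 145 had 1 call, 44 had 2 and 1 had at least 3. The summits of neighbouring calls at the same gene were spaced by a median of 203 bp (quartiles 201 and 232), and the median call width was 450 bp. Where paired calls overlap they share reads and are not separate evidence; the pairs at C52E4.8 and sup-6 do not overlap. Of the 45 genes with several calls, the strongest call was the nearest to the start in 27. For example, F32E10.10 had 205 at an offset of -37 bp (92.3 and 106 in the replicates) and 56.8 at 172 bp (44.6 and 15.3). F11A10.9 had 142 at -4 bp (71.0 and 70.4) and 82.6 at 197 bp (48.7 and 24.8).

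Seen over genes, 80 of the 445 annotated snoRNA and snRNA genes (18.0%; 14.7 to 21.8) had a call in the IDR set within 200 bp. Another 112 had a relaxed call only and 253 had none. Within 1000 bp of a start site, a wider limit, 661 of 19973 protein-coding genes (3.31%) had an IDR summit and 9483 had a call of any strength. The share at 200 bp was not counted for other genes. By annotation, the counts in the IDR set were 66 of 346 genes annotated as snoRNA (19.1%; 15.3 to 23.5) and 14 of 99 annotated as snRNA (14.1%; 8.61 to 22.3), spliced leader genes left out. Host-intron genes had 27 of 174 (15.5%; 10.9 to 21.6) and independent genes 35 of 163 (21.5%; 15.9 to 28.4), with overlapping intervals. By chromosome the share ran from 2 of 36 genes on X (5.56%; 1.54 to 18.1) to 22 of 83 on V (26.5%; 18.2 to 36.9), and 16 of 86 on I, 16 of 84 on II, 9 of 61 on III and 15 of 95 on IV lay between. How calls at other genes were spread over the chromosomes was not counted. The stronger of the X genes was C53B7.8, a snoRNA gene with 163 (77.3 and 84.8).

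**Figure D5:**
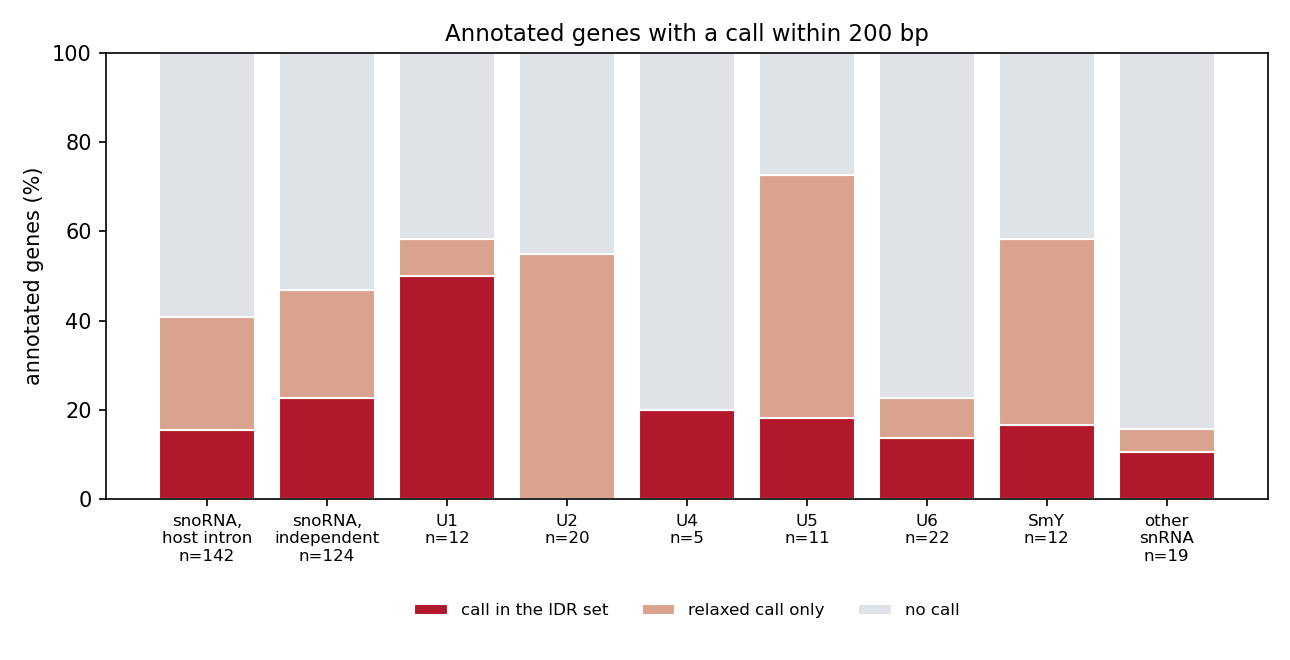
Percentage of annotated genes (vertical axis) with a call in the IDR set (red), a relaxed call only (light red) or no call (grey) within 200 bp, by kind of RNA and, for snoRNA genes, by place (horizontal axis, with the number of genes). U1 has the tallest red bar (6 of 12 genes), and U2 has none (0 of 20).

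The spliceosomal snRNA genes are given by kind. U1 pairs with the 5′ splice site, and 6 of its 12 genes had a call in the IDR set (50%; 25.4 to 74.6). The highest U1 gene was sup-6, known for mutations that suppress splicing defects, with 260 in the pool at 211 bp past its start (141 in replicate 1, not matched in replicate 2) and 216 at -8 bp (79.6 and 141). Another such suppressor gene, sup-39, had 170 at 200 bp (61.4 and 112) and 60.9 at -1 bp (14.9 and 30.6). Both calls were also within 200 bp of mir-1831, annotated as an snRNA gene inside sup-39. In each of the 6 U1 genes the highest call was not the one ahead of the gene: it lay past the end in sup-6, sup-39, T08G5.11 and F08H9.11 and inside the gene in H27M09.6 and F08H9.10. T08G5.11 had 149 at 293 bp (49.7 and 100.2) and 95.6 at -18 bp (31.1 and 65.2), and F08H9.11 had 108 at 193 bp (48.2 and 60.6) and 86.6 at -19 bp (12.6 and 47.9). H27M09.6 had 162 at 163 bp (71.7 and 94.8) and 37.2 at -36 bp (26.2 in replicate 1, not matched in replicate 2).

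U6, which forms part of the catalytic centre, gave the strongest snRNA call. W05B2.8 lies in an intron of dhc-4, a dynein heavy chain gene, and had 328 at -17 bp, with 165 in replicate 1 and 160 in replicate 2. Its summit lay 19718 bp from the host's start. The same gene had a further call of 184 (78.5 and 83.5). F54D8.7, an independent U6 gene, had 215 at -15 bp (106 in each replicate), and R07E5.16 in mpc-1, a mitochondrial pyruvate carrier gene, had 93.9 (40.7 and 39.2). In all, 3 of 22 U6 genes had a call in the IDR set, and 17 had no call.

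U4 pairs with U6 before the spliceosome is activated. Its highest gene, C52E4.8, had 262 at -3 bp (118 and 147) and 248 at 197 bp (109 and 137), and the remaining 4 U4 genes had no call. The C52E4.8 summit at -3 bp lay 392 bp from the start of snr-4, which encodes an Sm protein. U5, which holds the exons in place, had 2 of 11 genes in the set. F38E11.10 had 205 at -26 bp (94.4 and 113) and 143 at 177 bp (91.0 and 54.3), and F32B5.9 had 137 (28.8 and 106). Of the 12 SmY genes, 2 were in the set. They were smy-2 with 241 (85.5 and 160), and smy-3 with 138 (61.7 and 74.9), both annotated as snoRNA genes in Ensembl.

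U2, which pairs with the branch point, had 20 annotated genes and 0 in the IDR set, for which the Wilson interval allows up to 16.1%. Relaxed calls were present at 11 of them, and the highest were F08G2.10 with 77.9 (30.3 and 46.1) and F08G2.11 with 76.5 (35.4 and 42.1). Both values lay above the median of all nuclear calls and below the IDR edge. U2 genes are also the kind with the largest share of repeated genes, since in 14 of 20 over 50% of the 31-base words of the gene and its 100 bp flanks occur elsewhere in the genome. Among all 39 genes with that much repeated sequence 0 were in the IDR set, and among the 406 others 80 were. A relaxed call only was present at 11 of these 39 genes and at 101 of the 406 others. Reads that lie wholly within repeated sequence may not be assignable to a single place, and how many reads this concerns was not counted. The treatment of such reads in the authors' mapping was not given in the sources used here. Whether repeated sequence plays a part in the U2 result was not tested. Of 32 genes identical to another annotated gene, 9 were U2, 17 were U6 and 0 were snoRNA.

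The word GCGNAACC of the first set of sequences lay on the gene strand within the 100 bases ahead of 24 of the 80 genes with an IDR call (30%), 16 of 112 with a relaxed call only (14.3%) and 24 of 253 with no call (9.49%). On either strand the counts were 26, 16 and 25. In equal windows ahead of 19973 protein-coding genes it was present in 0.170% on that strand and in 0.315% on either. The median start of the word was -62 in the IDR group. The exact words CGGAACCC and GCGGAACC, which came first when all 8-base words were ranked by their number of independent genes with an IDR call, were each in 9 of 35 such genes (25.7%), in 10 and 9 of 89 independent genes with no call, and in 0.0250% and 0.0451% of the protein-coding windows. Since they were ranked on these genes, the 25.7% is a description. At host-intron genes, which the ranking did not use, each of these exact words was in 5 of 27 genes with an IDR call (18.5%), 6 of 49 with a relaxed call only (12.2%) and 3 of 98 with no call (3.06%). The 27 genes with an IDR call include U1 and U6 genes, such as sup-6 and W05B2.8. Other U1 and U6 copies were among the independent genes that were ranked, so the classes are not separate sets here. The wider word GCGNAACC was chosen after sequences of both classes were seen, so its count at host-intron genes is a description as well. It was in 10 of 27 genes with an IDR call (37.0%), 10 of 49 with a relaxed call only (20.4%) and 5 of 98 with no call (5.10%).

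Of the 24 genes with an IDR call and GCGNAACC, 13 were snoRNA genes, 4 U1, 2 U5, 2 U6, 2 SmY and 1 of another kind. Copies of the same snRNA share flanking sequence, so these genes are not independent. TGTCGGCC was in 9 of the 80 genes, all snoRNA genes, against 1 of 112 and 9 of 253, and in 7 of the 9 it followed GCGNAACC in the same window. Its median start was -47, and it was present in 0.0451% of the protein-coding windows. On either strand its counts were 10, 1 and 9. TGTCGGCC was also among the words ranked highest by their number of independent genes with an IDR call. Such genes supply 6 of its 9 genes on the gene strand, so its counts are a description.

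The A box letters TGGCNNAG were in 14 of the 80 genes with an IDR call (17.5%), 9 of 112 (8.04%) and 6 of 253 (2.37%), and in 0.686% of the protein-coding windows, with a median start of -59.5. The B box letters GTTCGA were in 15 of 80 (18.8%), 4 of 112 (3.57%) and 5 of 253 (1.98%), and in 1.43% of the protein-coding windows, with a median start of -16. On either strand the counts were 15, 12 and 12 for TGGCNNAG and 15, 6 and 11 for GTTCGA, and the protein-coding shares 1.79% and 2.97%. All genes with an IDR call and either of these words were snoRNA genes. In 11 genes, 6 of them with an IDR call, both words were present, and their starts were 43 to 52 bases apart, with a median of 45. In 0 of the 445 genes did GCGNAACC share a window with TGGCNNAG or GTTCGA. These words were chosen after the sequences were seen, and a match shows only that the letters are present.

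Read the other way, 24 of the 64 genes with GCGNAACC had an IDR call (37.5%), as did 14 of 29 with TGGCNNAG (48.3%) and 15 of 24 with GTTCGA (62.5%; 42.7 to 78.8). All 4 words were ranked on these same genes or chosen after their sequences were seen. The shares with and without them are therefore a description, and their intervals do not test a difference. A further set of 3 words was GCGNAACC, TGTCGGCC and TGGCNNAG, without GTTCGA. With any of these 3 the count was 40 of 103 (38.8%, interval 29.99 to 48.5). With none of these 3 it was 40 of 342 (11.7%, interval 8.71 to 15.5). In host introns the count was 16 of 39 (41.0%) with any of these 3 and 11 of 135 (8.15%) with none. For independent genes it was 15 of 39 (38.5%) with any and 20 of 124 (16.1%) with none. Of the 80 genes with an IDR call, 31 held no exact copy of any of the 4 words. Among them were C08D8.3 and C51F7.4, whose call is shared with C51F7.3. The summit minus the middle of the word had a median of 50 bp for GCGNAACC (quartiles 34.5 and 170.5), and 12 of 23 summits lay within 50 bp of it. For TGTCGGCC the median was 36 bp (30 and 107), with 6 of 9 within 50 bp. It was 27.5 bp for TGGCNNAG (15 and 52.75), with 10 of 14 within 50 bp, and -21.5 bp for GTTCGA (-37.25 and 9.5), with 13 of 14.

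Features that the rule did not use were counted in the same 3 groups of genes, with no test. A run of TTTT, which ends transcription by RNA polymerase III, began and ended within 20 bases after the gene in 51 of the 80 (63.8%), in 41 of 112 with a relaxed call only (36.6%) and in 83 of 253 with no call (32.8%). In host introns it was in 21 of 27 with an IDR call (77.8%) and 33 of 98 with no call (33.7%). Of the 24 genes with GTTCGA it was present in 21 (87.5%), and of the 64 with GCGNAACC in 22 (34.4%), where the share over all 445 genes was 39.3%. The median gene length was 98 bases with an IDR call, 131 with a relaxed call only and 130 with none. The 14 snoRNA genes with the letters TGATGA near the start and CTGA near the end, as in C/D box snoRNAs, had 7 with an IDR call (50%; 26.8 to 73.2), and the 75 with ACA near the 3′ end, as in H/ACA snoRNAs, had 12 (16%; 9.40 to 25.9). The 257 with neither had 47 (18.3%). The GC content within 50 bp of the summit had a median of 53.0% in the IDR set and 41.6% outside it, and its part in these counts was not tested.

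Genes for proteins that work with these RNAs were read from lists fixed by function. A gene was counted where the distance from its start to an IDR summit was at most 1000 bp, which held for 3.31% of all protein-coding genes (661 of 19973). Of 8 genes for snoRNA-bound proteins, 1 was in the set, nol-58, a core protein of C/D box particles, with 88.5. All 8 had a relaxed call within that distance, as did 9483 of all 19973 protein-coding genes, among them nol-56 with 82.6 and fib-1, which encodes the methyltransferase fibrillarin, with 74.9. Of 7 genes for SNAPc subunits 0 were in the set and 3 had a relaxed call. Of 11 matched genes for Integrator, the complex that cuts snRNA 3′ ends, 2 were in the set, ints-8 with 294 and ints-4 with 270, and 8 had a relaxed call.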

How the data were processed

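The signal values and summits were the authors': the deposited relaxed lists of peaks (replicate 1, replicate 2 and both pooled) and the thresholded IDR set, all in build ce11, per the labels. The scale of the signal, the peak caller, the aligner, the IDR threshold and the handling of multiply mapped reads are not given in the sources used here. Lists in build ce10 were not used. Nothing was normalized again, and signals of different lists were set side by side, plotted and correlated, but their levels were not compared.

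Genes came from Ensembl release 115 (WBcel235), with names repeated over copies replaced by RefSeq names for 26 genes, and sequences from the RefSeq copy of the assembly. A summit took its nearest snoRNA or snRNA gene. U1, U2, U4, U5 and U6 genes were recognised by a short sequence word, and SmY genes by name. Named calls were the 5 of highest pooled signal among host-intron snoRNA (SmY genes left out), independent snoRNA and snRNA genes, the best of each snRNA kind, the calls at each limit, and the highest host and partner genes with an IDR call, and other calls were named after their values were seen. The members, gene lists and words were chosen with earlier results of these data known. No test was made, because there was 1 group of 2 replicates. Shares have 95% Wilson intervals. Alternatives changed the distance (100 and 500 bp), the IDR set, the list (each replicate), the location class and the number of calls per gene. Position and interval code was tested on simulated data. Python 3.11.15, numpy 2.4.6, scipy 1.17.1 and matplotlib 3.10.9 were used.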

Additional observations from a re-analysis of the deposited data

How the results depend on the processing

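No paired analysis was possible because no result comes from a test. Of 78 alternative values, 17 lay outside the interval of the reported value. The number of calls has no interval and was judged by a fixed ratio. It was 186 at 100 bp, 335 at 500 bp, 190 with 1 call per gene and 203 to 229 in single-replicate lists. The share of calls in the IDR set was 45.2% with a distance of 100 bp, 28.1% with 500 bp, 27.1% in the IDR set above its median signal and 27.5% for peaks among the highest calls of both replicates, where 1.36% and 1.67% of all nuclear calls qualified in the last 2 cases. For host-intron genes it was 22.9% at 500 bp. For independent genes it was 33.9% at 500 bp, 30.9% above that median and 33.0% in both replicates. In the list of a single replicate, the IDR set was replaced by the 862 calls of highest signal in that list. The share of calls among those ran from 39.6% to 53.9% for independent genes, against 32.2% to 35.0% for host-intron genes. The 53.9% came from replicate 1 alone, where the intervals of the classes (42.8 to 64.7 and 25.5 to 45.9) still overlapped. The median signal was 44.4 at 500 bp. In the lists of single replicates, which have their own scale and nuclear medians of 17.3 and 18.6, it was 33.7 to 36.1 for all calls, 28.4997 to 35.4 for host-intron genes and 36.0 to 43.9 for independent genes. snoRNA genes with a call were 14.7% above that median. Depth is unknown, which limits what weak or missing calls can show.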
